A study of Mus musculus with 4 samples.

Results

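The 33 genes described here encode the T cell receptor signalling machinery: the CD3 chains, the coreceptors, the kinases and adaptors next to the receptor, the enzymes that carry the signal into the cell, and the surface proteins and phosphatases that tune it. They were taken from a list of symbols, and all 33 are among the 32285 genes of the deposited count matrices. They were read in the mononuclear fraction of blood from 2 mouse strains, BL/6 and SM/J, aged 12 and 20 months, with one 10x Genomics 3′ single-cell matrix for each strain and age, called a library below. The labels name no treatment and no allele for either strain, and they do not say how many mice gave blood. Both ages of a strain were tagged with cell multiplexing oligos and run together in 1 10x run, so strain and run cannot be told apart. Each library carries 3 tags, and the cells of 1 tag are called an aliquot; nothing says that an aliquot is an animal. With 1 library for each strain and age, no test is given between ages or strains, and intervals there cover counting error only.

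A T cell recognises peptide on MHC molecules through the T cell receptor, which has no enzyme of its own and signals through the CD3 chains and the zeta chain Cd247. Lck, brought in by the coreceptors CD4 and CD8, phosphorylates these chains, Zap70 docks on them and phosphorylates the scaffolds Lat and Lcp2 (SLP-76), and Plcg1 then splits a membrane lipid into the messengers that raise calcium, for NFAT, and activate Prkcq and Rasgrp1. NK cells have no rearranged T cell receptor, but several of their activating receptors signal through Cd247 and use Fyn, Lck and Zap70.

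A T cell was a cell with at least 2 UMIs (unique molecular identifiers, counted RNA molecules) of Cd3d, Cd3e and Cd3g together. It was placed in the CD8 gate if it had at least 1 UMI of Cd8a and Cd8b1, and in the Ccl5-high gate if it had at least 2 UMIs of Ccl5, a chemokine of effector and memory T cells and of NK cells. NK cells had at most 1 CD3 UMI and at least 2 UMIs of Ncr1, Klrb1c and Klre1. The 5 members Cd3d, Cd3e, Cd3g, Cd8a and Cd8b1, set these gates and are given as descriptions only; the other 28 were free to vary. Levels are UMIs per 1000000 UMIs of all cells in a gate (CPM).

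The 4 gene promoters that stand for the largest contrast below, NK cells against Ccl5-high CD8 T cells, are shown first. They are the members with the 2 largest called falls (Themis, Plcg1) and the 2 called rises (Txk, Ptprc) in NK cells among the 22 of 33 members that RefSeq's promoter table (GRCm38.p6) matched. Each is the 250 bases before the first listed start, on the gene's strand from 5′ to 3′: Themis chr10:28668110-28668359 (plus), Plcg1 chr2:160731060-160731309 (plus), Txk chr5:72752778-72753027 (minus) and Ptprc chr1:138175306-138175555 (minus). Capitals mark matches to 3 short motifs searched on both strands. They are TGTGGT for RUNX factors (ACCACA on the other strand), AGGAAG for ETS factors (CTTCCT on the other strand) and CTTTGA for TCF/LEF factors (TCAAAG on the other strand), and no 2 marked matches overlap.
Themis: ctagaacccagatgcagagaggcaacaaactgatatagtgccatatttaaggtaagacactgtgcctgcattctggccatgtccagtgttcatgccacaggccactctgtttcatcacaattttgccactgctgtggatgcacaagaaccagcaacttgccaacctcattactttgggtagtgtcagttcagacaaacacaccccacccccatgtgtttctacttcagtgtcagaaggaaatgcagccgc
Plcg1: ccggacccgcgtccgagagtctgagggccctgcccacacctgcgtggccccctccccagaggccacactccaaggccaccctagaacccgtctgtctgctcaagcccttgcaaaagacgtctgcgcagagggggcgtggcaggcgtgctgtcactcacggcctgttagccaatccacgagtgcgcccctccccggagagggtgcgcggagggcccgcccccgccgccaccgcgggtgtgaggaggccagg
Txk: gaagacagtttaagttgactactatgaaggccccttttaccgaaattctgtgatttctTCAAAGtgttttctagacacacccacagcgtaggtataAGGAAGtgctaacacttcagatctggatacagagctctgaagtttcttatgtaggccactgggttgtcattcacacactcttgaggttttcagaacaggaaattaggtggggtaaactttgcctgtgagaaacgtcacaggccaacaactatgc
Ptprc: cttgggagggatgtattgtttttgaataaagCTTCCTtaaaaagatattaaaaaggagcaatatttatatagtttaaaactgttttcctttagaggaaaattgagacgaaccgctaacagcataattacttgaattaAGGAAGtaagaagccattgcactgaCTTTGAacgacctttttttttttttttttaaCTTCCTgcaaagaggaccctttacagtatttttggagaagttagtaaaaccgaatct
The Themis and Plcg1 windows hold none of the 3 letter strings, Txk holds 1 ETS and 1 TCF/LEF match, and Ptprc holds 3 ETS matches and 1 TCF/LEF match. The windows differ widely in base composition, from 31.6% GC for Ptprc and 42.8% for Txk to 48% for Themis and 71.2% for Plcg1. Taking a gene as holding a motif when any of its listed promoters does, 14 of the 22 matched members held the ETS letters (63.6%, against 32.3% of 27025 genes). The TCF/LEF letters were held by 9 members (40.9%, against 15.8%) and the RUNX letters by 4 (18.2%, against 15.9%). A match describes letters in a window and is not a binding site.

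The libraries held 3551 and 3272 cells for BL/6 at 12 and 20 months and 2580 and 2896 for SM/J, with 14250603 to 30627357 UMIs each; 11591 of 12299 cells passed the filters. Among them were 452, 513, 380 and 234 T cells (1579 in all, always in the order BL/6 12, BL/6 20, SM/J 12, SM/J 20 months) and 93, 67, 57 and 51 NK cells (268). Any pair of libraries shared 0 to 3 cell barcodes. The T cell markers summed to 28.4 to 32.8 UMIs per 10000 in the T gates against 3.79 to 8.25 in the NK gates, where Trac was at 0 in both SM/J libraries. The NK markers summed to 127 to 153 per 10000 in NK cells and to 4.48 to 9.86 in T cells. Ncr1, Klrb1c and Klre1 among them set the NK gate, so part of the high sum there follows from the gate. Txk, also among them, is a member that T cells express too. Markers of other cells were present in the T gates and differed between libraries: all 6 B cell markers were detected in each, summing to 3.17, 0.483, 9.70 and 4.57 UMIs per 10000, the 7 macrophage markers to 0.335, 1.22, 1.92 and 10.1, and the 5 erythroid markers to 3.86, 21.1, 14.0 and 84.4. T cells with at least 2 UMIs of B cell or myeloid marker genes made up 13.1%, 12.3%, 26.3% and 18.4% of the 4 T gates. The members' age and strain ratios over all T cells are therefore also given without these mixed droplets and without those holding macrophage or red-cell RNA, which leaves out 14.2%, 13.8%, 29.5% and 24.8% of T cells; the part of such droplets in the full values was otherwise not tested. In summed cells, fewer expressing cells and less RNA per cell cannot be told apart.

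The make-up of the T cells differed strongly between the libraries. The CD8 gate held 47.1% of T cells in BL/6 at 12 months (95% Clopper-Pearson interval 42.4% to 51.8%), 27.1% at 20 months (23.3% to 31.2%), and in SM/J 30.3% (25.7% to 35.2%) at the younger and 25.6% (20.2% to 31.7%) at the older age. The Ccl5-high gate held 59.7% (55.1% to 64.3%) and 33.3% (29.3% to 37.6%) for BL/6, beside 13.9% (10.6% to 17.8%) and 28.2% (22.5% to 34.4%) for SM/J. The 3 aliquots of BL/6 were all lower at 20 months (29.2% to 40.5%) than at 12 months (55.8% to 66.0%), and the 3 of SM/J were all higher (23.3% to 31.3% against 13.3% to 14.1%). Most CD8 T cells of BL/6 were Ccl5-high (92.5% and 84.9%), whereas in SM/J 24.3% were at 12 months and 68.3% at 20 months. In the B cell gate, which should lack Ccl5, 0.0801% to 0.369% of cells reached 2 UMIs of it, and in the monocyte gate 0.404% to 1.36%. With each cell thinned to 1000 UMIs, which leaves 200, 206, 178 and 95 T cells, the Ccl5-high shares were 59.5%, 25.2%, 15.7% and 17.9% and the CD8 shares 36.5%, 9.22%, 14.6% and 12.6%.

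**Figure D1:**
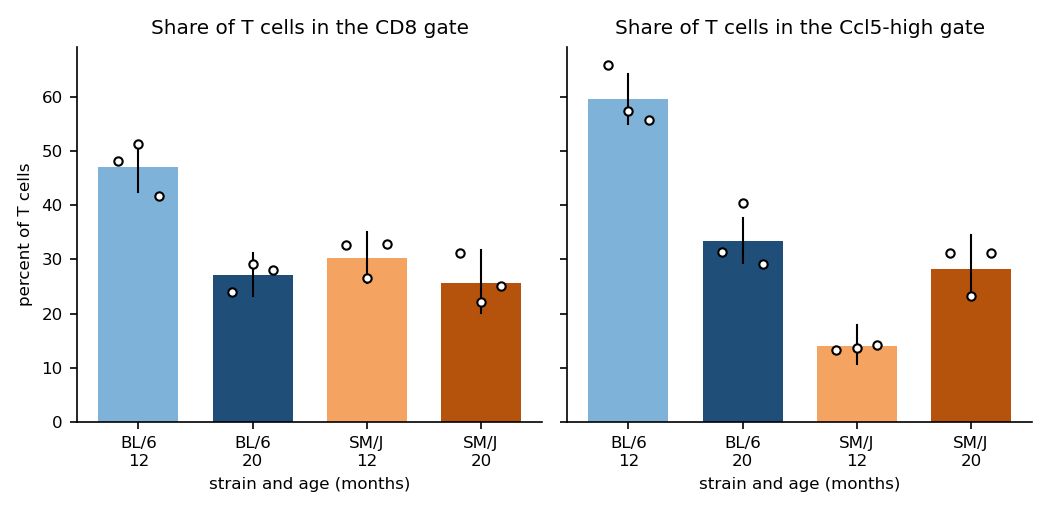
Share of T cells (percent) in the CD8 gate (left) and the Ccl5-high gate (right) for each strain and age. Bars are libraries, lines are 95% Clopper-Pearson intervals and open dots are the 3 aliquots; Ccl5-high T cells run from 13.9% in SM/J at 12 months to 59.7% in BL/6 at 12 months.

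The CD3 chains were measured at similar levels in all T gates, as the gate requires: Cd3d at 438 to 517 CPM, Cd3e at 330 to 462 and Cd3g at 455 to 569 over the 4 T cell sums. None of the 3 passed 4.58 CPM in the B cell gate. Cells with at least 2 CD3 UMIs are left out of that gate, so low CD3 there follows from it. Cd8a ran from 49.5 to 125 CPM and Cd8b1 from 75.8 to 275, both highest in BL/6 at 12 months, where the CD8 share was highest. Cd4, the coreceptor for MHC class II, lay at 69.9, 109, 62.1 and 94.98 CPM in all T cells. It was at 1 UMI or 0 in the Ccl5-high CD8 gates and at 0 in NK cells, and 35.8% to 51.4% of Ccl5-low non-CD8 T cells had a Cd4 UMI. The non-CD8 gate is thus defined by missing Cd8 UMIs, not by Cd4, and its other cells may be of either lineage.

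Against B cells, the free members ranged from genes with almost no RNA there to genes at the level of T cells. In the B cell gate, Themis, Lat, Zap70, Cd6, Icos, Sh2d1a, Trat1 and Prkcq each stayed at or below 1.66 CPM in every library. Of these, Sh2d1a (103 CPM in NK cells and 83.9 in Ccl5-high CD8 T cells, over the 4 libraries together), Zap70 (55.4 and 71.4) and Prkcq (367 and 487) were not low in NK cells. Cd2, an adhesion receptor, reached 237 to 555 CPM in B cells, beside 233 to 261 CPM in T cells. Rasgrp1, which loads Ras with GTP, lay at 86.2 to 118 CPM in B cells against 91.8 to 153 in T cells, and Nfatc3, a calcium-dependent transcription factor, at 84.1 to 246 CPM against 126 to 169.5.

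**Figure D2:**
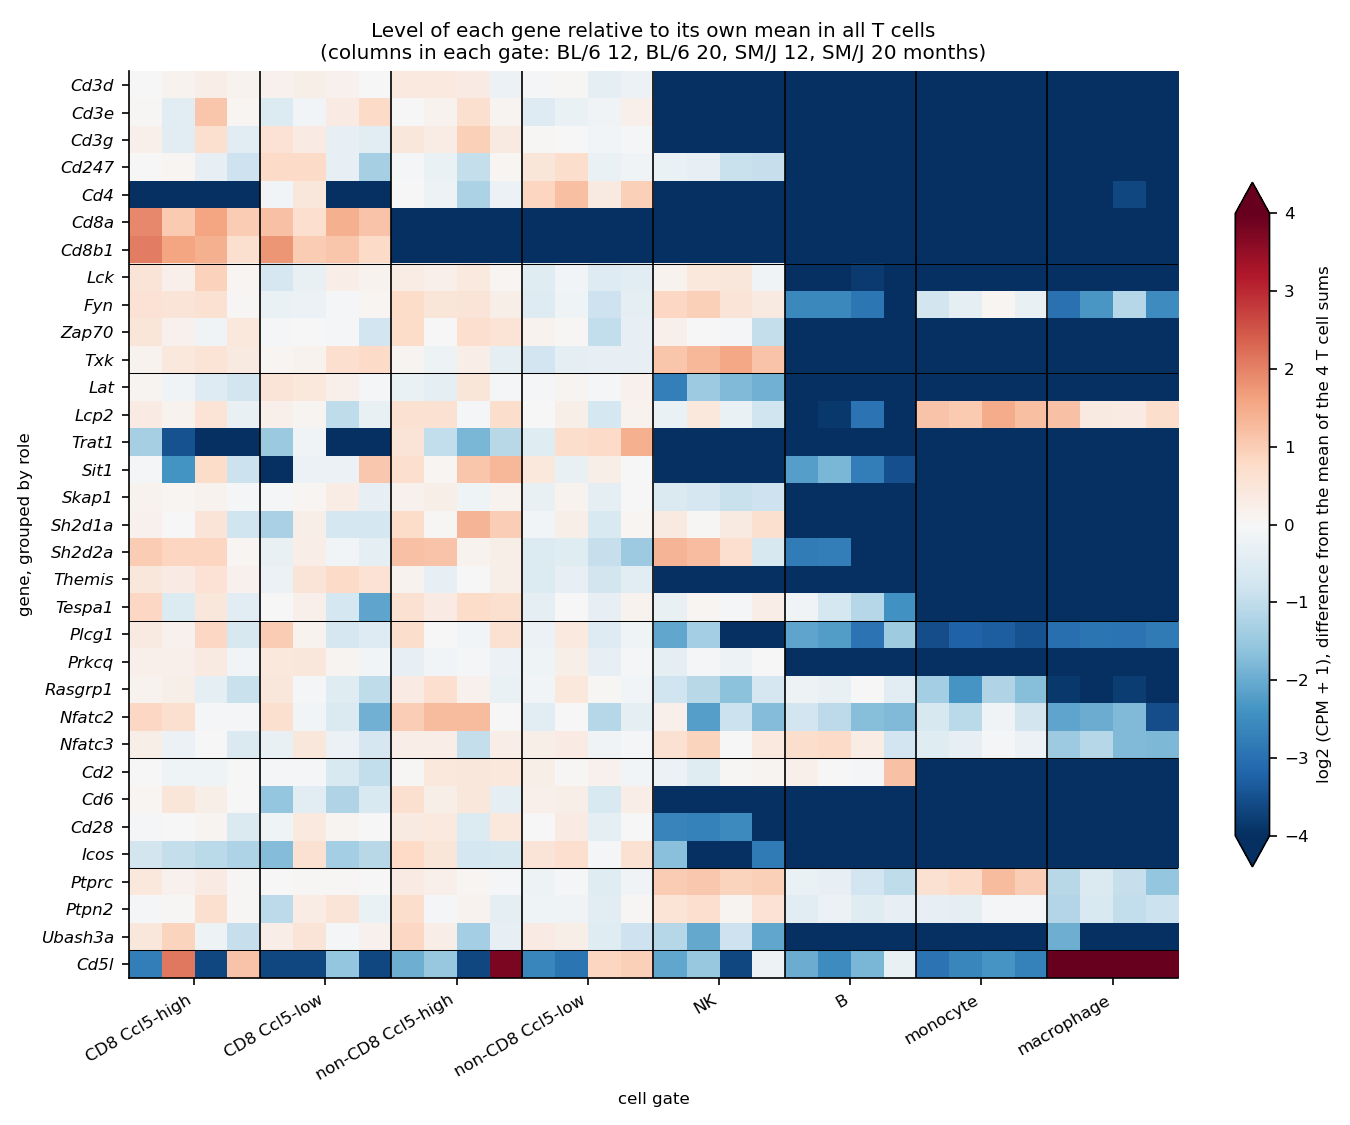
Level of each of the 33 genes in each gate and library, as log2 (CPM + 1) minus the gene's mean over the 4 T cell sums (colour, clipped at 4 either way). Themis, Cd6 and Cd28 are dark blue in NK cells while Txk and Ptprc are red, and Cd5l is red in the macrophage gate in all 4 libraries.

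NK cells carried a distinct part of the machinery. Against Ccl5-high CD8 T cells, edgeR's quasi-likelihood test with the library as a block and Benjamini-Hochberg adjustment called 1023 of 4943 genes (20.7%; 9.33% higher and 11.4% lower in NK cells), and 14 of 24 tested members, 12 lower and 2 higher. The median log2 difference was -0.58 over the members and 0.02 over all genes. The p-values measure the spread among 4 libraries from 2 10x runs. As there is 1 library for each strain and age, this spread can hold strain and age differences as well as technical ones.

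Themis and Cd6 had almost no RNA in NK cells, and Cd28 was lower there. Themis, an adaptor needed for thymic selection, lay at 764.5, 710.9, 829 and 634 CPM in Ccl5-high CD8 T cells and at 3.94 CPM (2 UMIs), 0, 0 and 0 in NK cells. Over the 4 libraries together it was 429.6-fold higher in the T cells (95% counting interval 119 to 3549.9). Cd6, a receptor that binds adhesion molecules on other cells, lay at 135, 181, 149 and 130 CPM in the T cells and had no UMI in any NK gate, so it was at least 60.0-fold higher in T cells against a floor of 3 counts over the group. Both were called (adjusted p = 5.4e-08 and 1e-05, edgeR). No library of either population overlapped with one of the other. The adhesion receptor Cd2 was at 216.5 CPM in NK cells and 233 in the T cells over the 4 libraries together, a 1.08-fold ratio (counting interval 0.928 to 1.25).

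Cd28, the main costimulatory receptor of naive T cells, was at 379, 394, 434 and 269 CPM in Ccl5-high CD8 T cells and at 63.1, 60.6, 67.7 and 14.6 in NK cells (log2 difference -3.05 ± 0.23 SE, adjusted p = 2.7e-06, edgeR). Its inducible relative Icos was low in both, at 46.5 to 65.0 CPM against 33.5, 3.37, 0 and 14.6, and was called at -2.02 ± 0.46 (adjusted p = 0.0082). Sit1, an inhibitory transmembrane adaptor, had 33 UMIs in the T cells and 0 in NK cells, at least 4.75-fold, and was below the 100 UMIs needed for the test.

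Of the scaffold that links Zap70 to calcium, Lat and Plcg1 fell in NK cells while Lcp2 was not called. Lat was at 162, 134, 104 and 89.6 CPM in the T cells and at 21.7, 53.9, 43.1 and 38.8 in NK cells, a log2 difference of -2.01 ± 0.29 (adjusted p = 0.00038, edgeR). Plcg1 was at 47.3, 40.8, 64.7 and 23.2 CPM against 7.88, 13.5, 0 and 0, with 8 UMIs in all NK cells (6.31-fold over all libraries, counting interval 3.10 to 15.0; adjusted p = 0.0014). The ranges of both genes did not overlap. Lcp2 had a difference of -0.57 (adjusted p = 0.079).

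Further members were also lower in NK cells. Skap1, an adaptor that couples the receptor to integrins, was at 1222 to 1400 CPM in T cells and at 689 to 857 in NK cells (-1.03 ± 0.13, adjusted p = 0.00016). Ubash3a, a phosphatase-family protein that restrains receptor signalling, was at 60.8, 83.5, 38.8 and 23.2 CPM against 19.7, 10.1, 24.6 and 9.71 (-2.02 ± 0.37, adjusted p = 0.002). The ranges of Skap1 did not overlap between the populations, whereas those of Ubash3a overlapped. Nfatc2 (-1.47 ± 0.39, adjusted p = 0.017) and Rasgrp1 (-1.10 ± 0.27, adjusted p = 0.011) were also called, and Rasgrp1 was higher in NK cells in the SM/J library at 20 months by CPM. Prkcq (-0.58 ± 0.16, adjusted p = 0.022) and Cd247 (-0.57 ± 0.17, adjusted p = 0.032) were called with TMM scaling. By library totals alone they stood at -0.33 (adjusted p = 0.15) and -0.32 (adjusted p = 0.18), and Prkcq was a little higher in NK cells of SM/J at 20 months.

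The 2 members that rose in NK cells were a kinase and a phosphatase. Txk, a Tec-family kinase that was also in the NK marker list used here, was at 380, 464, 505 and 448 CPM in Ccl5-high CD8 T cells and at 743, 869, 1015 and 772 in NK cells (0.69 ± 0.14, adjusted p = 0.0034, edgeR). Ptprc (CD45), which removes the inhibitory phosphate from Lck and Fyn, was at 1590, 1341, 1470 and 1225 CPM against 2380, 2492, 2183 and 2282 (0.51 ± 0.12, adjusted p = 0.012). Every NK library was above every T cell library for both genes. The proximal Src and Syk kinases were not called: Fyn differed by 0.02 (adjusted p = 0.96), Lck by -0.43 (0.089) and Zap70 by -0.60 (0.13).

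Scaling moved this contrast as a whole. With library totals in place of TMM factors, an alternative chosen after seeing the data, the median of all genes went from 0.02 to 0.26, the calls from 461 higher and 562 lower to 866 higher and 401 lower, and the members' median to -0.33. Of the members, 13 were then called, 10 lower and 3 higher, Nfatc3 now among the latter at 0.69 (adjusted p = 0.025). Leaving out BL/6 at 12 months left 8 members called, of 21 tested, beside 683 of 3184 genes.

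**Figure D3:**
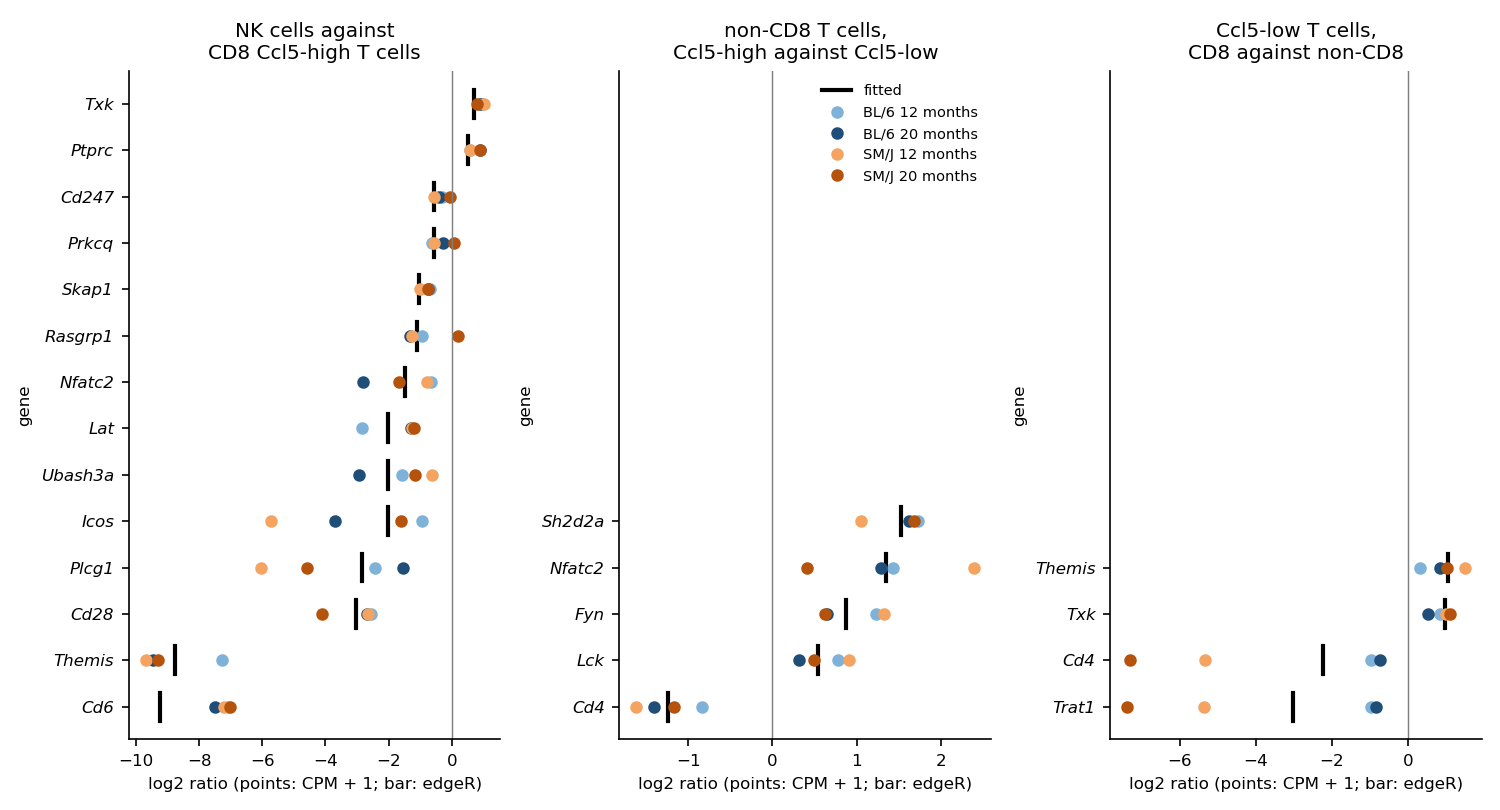
Members called in 3 gate contrasts; the x axis is a log2 ratio, points are the 4 libraries (CPM + 1) and black bars are edgeR's estimates, which use TMM scaling and so sit apart from the points where it shifts the contrast. Themis and Cd6 lie furthest left in NK cells, the bar of Sh2d2a furthest right in Ccl5-high non-CD8 T cells, and Cd4 and Trat1 of Ccl5-low CD8 T cells lie between -0.99 and -0.75 in BL/6, while their SM/J points, like those of Cd6 in NK cells, rest on 1 UMI or 0 and are set by the added 1 CPM.

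Among T cells without a Cd8 UMI, Ccl5-high cells had more of the Src kinase Fyn, of Sh2d2a and of Nfatc2 than Ccl5-low cells. The test called 628 of 5850 genes (10.7%; 5.04% higher and 5.69% lower in Ccl5-high cells), and 5 of 27 members, 4 higher and 1 lower. The members' median was 0.28 against 0.00 over all genes, and 0.086 without BL/6 at 12 months.

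Sh2d2a (TSAd), an SH2-domain adaptor of activated T cells that binds Lck, was at 122.5, 118, 58.5 and 63.0 CPM in Ccl5-high and at 36.3, 37.8, 27.6 and 18.9 in Ccl5-low cells (1.52 ± 0.23 SE, adjusted p = 0.00035, edgeR). Fyn was at 622, 527, 535 and 448 CPM against 265, 335, 213 and 291 (0.88 ± 0.15, adjusted p = 0.0013). Nfatc2, which drives cytokine genes after a calcium signal, was at 69.1, 84.4, 83.6 and 35.0 CPM against 24.9, 34.0, 15.0 and 26.1 (1.35 ± 0.29, adjusted p = 0.0053). For each of these 3 genes, every Ccl5-high library was above every Ccl5-low one.

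Lck was at 274, 260, 293 and 238 CPM in Ccl5-high and 160, 209, 155 and 168.5 in Ccl5-low cells, a smaller difference that was called (0.54 ± 0.15, adjusted p = 0.036). The call was kept in 4 of 15 alternatives and lost in the rest, among them the fits without BL/6 at 12 months, SM/J at 12 and SM/J at 20 months, and the difference was 0.24 without mixed, macrophage and red-cell droplets. Cd4 ran the other way, at 82.4, 70.9, 33.4 and 70.0 CPM in Ccl5-high against 148, 189, 104.5 and 158 in Ccl5-low cells (-1.24 ± 0.20, adjusted p = 0.00066). Cd247 was close to the threshold at -0.60 ± 0.19 (adjusted p = 0.053), as was Tespa1, an adaptor of calcium release, at 0.65 (adjusted p = 0.058). B cell markers moved with this contrast: they summed to 8.33, 0.46, 16.0 and 5.53 UMIs per 10000 in Ccl5-low cells and to 0.557, 1.01, 6.27 and 0.42 in Ccl5-high cells. NK cell markers moved with it too, at 9.71, 5.00, 18.7 and 4.69 UMIs per 10000 in Ccl5-high and 2.24, 2.85, 2.99 and 2.96 in Ccl5-low cells, against 127 to 153 in the NK gate. The marker list includes the member Txk, which made up most of the Ccl5-low sums. The other NK markers therefore differed by a larger factor than these sums show. The part of NK cell RNA in the result was not tested. All 8 markers were detected in Ccl5-high cells of the 12-month libraries, and Klra8, with Gzma in SM/J, was at 0 in those of the 20-month ones. Over the 4 libraries together Fyn was at 637 CPM in NK cells and Sh2d2a at 110. Without mixed, macrophage and red-cell droplets 7 of 27 members were called, 4 higher and 3 lower, beside 13.7% of genes (6.32% higher and 7.40% lower), and Sh2d2a (1.28), Nfatc2 (1.16), Fyn (0.76) and Cd4 (-1.38) kept their calls.

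Within the CD8 gate no member was called between Ccl5-high and Ccl5-low cells. The test called 13 of 4480 genes (0.290%) and 0 of 24 members, with 387 genes at an unadjusted p under 0.05. DESeq2 called 4 genes, sums per 10x run 69 and no replicate block 1. With no low-count filter 114 of 16267 genes were called, and 2 of 28 members. In simulated counts the fit found 33% of 2-fold changes in this contrast. The comparison rested on 16, 21, 87 and 19 Ccl5-low CD8 cells. Cd6 had the smallest adjusted p, at 135, 181, 149 and 130 CPM in Ccl5-high against 43.0, 95.9, 54.7 and 83.1 in Ccl5-low cells (1.07 ± 0.27, adjusted p = 0.13). All 4 Ccl5-high libraries lay above the Ccl5-low ones, but the difference did not pass the test over all genes.

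Among Ccl5-low T cells, those of the CD8 gate had more Themis and Txk and less Trat1 and Cd4 than the others. Of 5678 genes 202 were called (3.56%; 1.39% higher and 2.17% lower in CD8 cells), and 4 of 27 members. Themis was at 473, 799, 949 and 831 CPM in the CD8 gate against 382, 444, 336 and 408 (1.04 ± 0.18, adjusted p = 0.0029, edgeR). Txk was at 366, 384, 553 and 590 CPM against 206, 265, 277 and 276 (0.96 ± 0.17, adjusted p = 0.0035). Each CD8 library was above every non-CD8 library for both genes. Without mixed droplets 71 genes were called, and 73 also without macrophage and red-cell droplets, and the members' median went from 0.21 to 0.01 and -0.02. In the latter Themis (0.76, adjusted p = 0.035, edgeR), Trat1 and Cd4 were still called, and Txk was not (0.63, adjusted p = 0.055).

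Trat1 (TRIM), a transmembrane adaptor bound to the receptor complex, was nearly absent from the CD8 cells of SM/J. It was at 21.5 CPM (2 UMIs) and 56.0 (7 UMIs) in Ccl5-low CD8 cells of BL/6 and at 1.61 (1 UMI) and 0 in SM/J, against 43.6, 101.5, 105 and 166 in non-CD8 cells (-3.03 ± 0.60, adjusted p = 0.0076). Cd4 was likewise at 75.3, 112, 1.61 and 0 CPM in the CD8 cells (-2.24 ± 0.52, adjusted p = 0.023), so droplets in the Ccl5-low CD8 gate of BL/6 held Cd4 UMIs. The CD8 gate asks for 1 Cd8 UMI, and whether stray Cd8 RNA placed such droplets there was not tested. Whether the strains differ here was not tested. Without the library block no member was called here, beside 21 of 5678 genes; 1 was without SM/J at 20 months (70 of 5136 genes) and 2 without SM/J at 12 months (56 of 4416).

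Summed as one module, 27 free members (Cd5l left out) made up a similar share of RNA in T and NK cells. They summed to 72.5, 73.5, 60.6 and 63.9 UMIs per 10000 in T cells and to 67.3, 71.1, 63.5 and 61.3 in NK cells, against 14.5 to 18.7 in B cells and 7.72 to 11.8 in the macrophage gate. The monocyte gate stood at 25.2 to 38.8, of which Ptprc gave 70.9% to 73.1%. The NK sum leaned on a single gene: Ptprc gave 34.4% to 37.2% of it, against 16.8% to 18.8% in T cells, and without Ptprc the NK sums were 43.5, 46.1, 41.6 and 38.5. By gate, Ccl5-low non-CD8 T cells were at 60.1, 72.6, 51.6 and 63.7, the lowest T gate in every library but SM/J at 20 months, where Ccl5-high CD8 cells were at 61.4. Mixed droplets were 20.5%, 11.8%, 30.4% and 18.8% of their cells, the highest share among the T gates in the 12-month libraries but not in the 20-month ones.

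The apparent strain difference of the module narrowed without mixed, macrophage and red-cell droplets. T cells of SM/J were then at 70.7 and 73.1 UMIs per 10000 and those of BL/6 at 77.1 and 74.1. At 20 months the gap of 73.5 to 63.9 became one of 74.1 to 73.1. At 12 months the gap of 72.5 to 60.6 became one of 77.1 to 70.7, where the counting intervals still did not overlap. The Ccl5-low non-CD8 gate stood at 69.7, 72.1, 65.7 and 75.1 without them.

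**Figure D4:**
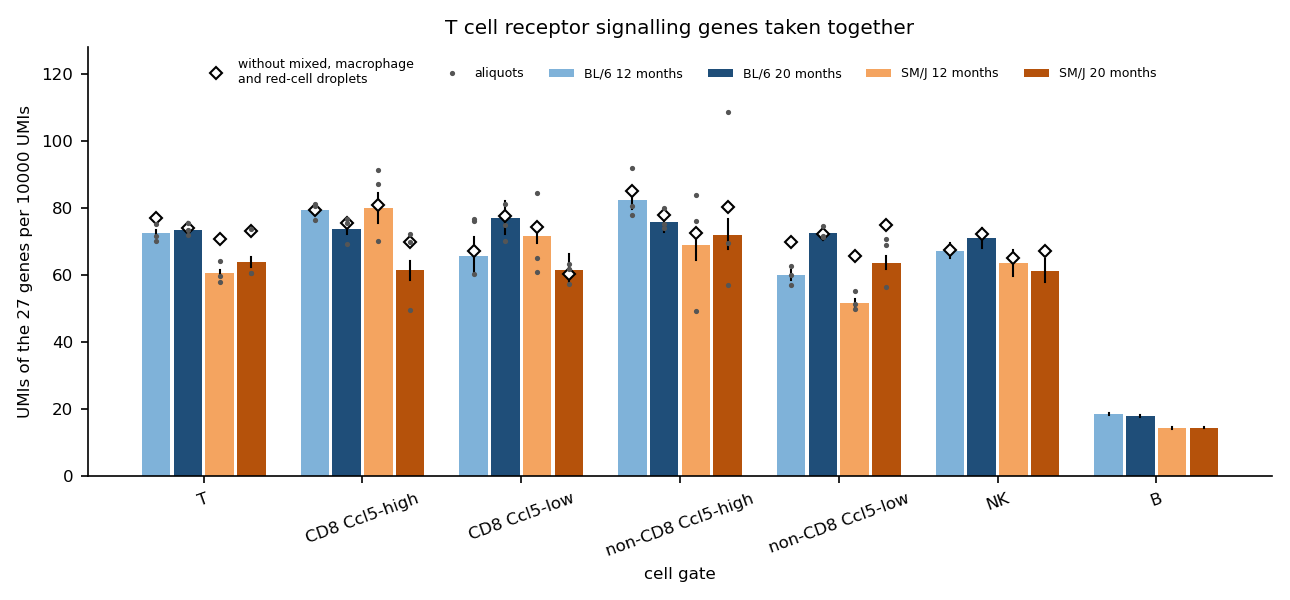
UMIs of 27 receptor signalling genes per 10000 UMIs in each gate; bars are libraries with 95% counting intervals, grey dots aliquots, and diamonds the value without mixed, macrophage and red-cell droplets. In all T cells the SM/J bars (60.6 and 63.9) lie below the BL/6 bars (72.5 and 73.5), while the diamonds lie between 70.7 and 77.1.

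With age, few members were past 1.5-fold in T cells, and Cd4 did so in both strains. In BL/6, 9.12% of 5963 genes were past 1.5-fold (2.58% higher and 6.54% lower at 20 months) and 1 of 26 tested members was: Cd4, from 69.9 to 109 CPM (log2 ratio 0.63, 95% counting interval 0.37 to 0.89). The 3 aliquots at 20 months (92.4 to 126 CPM) all lay above those at 12 months (67.5 to 71.4). The CD8 share was 47.1% and 27.1% in the same libraries, and with the 4 gates weighted equally in both libraries no member was past the fold, beside 143 genes higher and 358 lower. Without mixed, macrophage and red-cell droplets Cd4 was at 0.51 and no member was past it, beside 7.89% of genes.

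Within single gates of BL/6, Tespa1 and Trat1 stood further apart between the ages than over all T cells. In the Ccl5-high CD8 gate 1 of 24 members was lower past the fold, beside 10.3% of genes, and in the Ccl5-low non-CD8 gate 2 of 24 were higher, beside 2.98% (1 of 23, beside 2.94%, without mixed, macrophage and red-cell droplets). Of 5 members tested in the Ccl5-low CD8 gate 1 was higher, beside 1.81% of genes. Of 15 in the Ccl5-high non-CD8 gate 0 were past the fold either way, beside 6.69%. Tespa1 went from 102 to 69.0 CPM in all T cells (-0.55, interval -0.82 to -0.29), and by -1.39 (-1.85 to -0.94) in the Ccl5-high CD8 gate, which was -1.29 without mixed droplets. Trat1 was higher by 1.20 (0.71 to 1.71) in the Ccl5-low non-CD8 gate, and by 1.11 without mixed droplets. Plcg1 was the other member higher in that gate, at 0.62 (0.01 to 1.26). Over aliquots, 5 of 26 members did not overlap between the ages (Cd247, Cd4 and Rasgrp1 higher, Ptprc and Tespa1 lower), beside 27.0% of all genes (8.42% higher and 18.6% lower).

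In SM/J, 8.89% of 4208 genes were past 1.5-fold (6.75% higher, 2.14% lower at 20 months) and 4 of 24 members were, all higher. Lcp2 went from 73.1 to 118 CPM (0.68, 0.35 to 1.02), Cd6 from 84.6 to 135 (0.67, 0.36 to 0.98), Cd4 from 62.1 to 94.98 (0.60, 0.24 to 0.97) and Trat1 from 61.7 to 94.2 (0.60, 0.24 to 0.97). The 3 aliquots of each age did not overlap for any of the 4. In all, 6 members did not overlap, Zap70 and Icos among them, and all were higher at 20 months, beside 14.4% of all genes that were higher and 20.1% that did not overlap in either direction. The median over the members was 0.05, against 0.08 over all genes.

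The SM/J age difference was sensitive to the T cell gate, the make-up of the droplets and the scaling. In T cells gated by at least 1 CD3 UMI, 1 of 27 members was higher at 20 months and 9 were lower (11.1% and 4.63% of genes), the members' median was -0.30, and Lcp2 (-0.072), Cd6 (-0.0095), Cd4 (-0.044) and Trat1 (-0.12) turned direction. Mixed T cells were 26.3% at 12 and 18.4% at 20 months, B cell markers 9.70 and 4.57 UMIs per 10000, and macrophage markers 1.92 and 10.1. The 5 markers of gamma-delta T cells rested on few UMIs, 17 and 93 (0.0813 and 0.742 per 10000; Sox13 and Il23r at 0 at 12 months), and their part in the result was not tested. Without mixed, macrophage and red-cell droplets Cd4 (0.61) and Trat1 (0.59) stayed past the fold, and Lcp2 (0.41) and Cd6 (0.51) did not, beside 3.07% of genes higher by that much. With TMM scaling no member was past it, as the median of all genes moved from 0.08 to -0.06. In Ccl5-low non-CD8 cells 6 of 21 members were higher by more than 1.5-fold, beside 7.78% of genes. Without these droplets 0 of 18 were, beside 5.26%. The CD8 gates had no member higher. Of 9 tested in Ccl5-high CD8 cells, Lck (-0.86, -1.36 to -0.35) and Cd28 (-0.69, -1.17 to -0.20) were lower, beside 7.71% of genes. Of 11 in Ccl5-low CD8 cells, Cd247 (-1.02, -1.96 to -0.21) and Skap1 (-0.63, -0.91 to -0.35) were, beside 9.19%. Without mixed, macrophage and red-cell droplets these counts were 0 of 8, beside 7.82%, and 2 of 9, beside 12.3%.

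The gene counts of all 4 age and strain comparisons moved with the scaling. TMM factors moved the median of all genes from -0.09 to 0.01 and the genes past the fold from 154 higher and 390 lower to 222 and 270 with age in BL/6, and from 284 and 90 to 159 and 170 in SM/J. Between strains the median went from -0.14 to -0.04 (294 and 759 to 405 and 545) at 12 months and from 0.04 to -0.10 (502 and 381 to 338 and 613) at 20 months. With TMM, 7 members were lower and 1 higher in SM/J at 12 months, and 6 lower and 1 higher at 20 months.

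Between strains at 12 months more members were lower than higher in SM/J over all T cells, but not in the Ccl5-low CD8 gate. Of 5437 genes 19.4% were past 1.5-fold (5.41% higher and 14.0% lower in SM/J), and of 27 members 9 were, all lower; the median was -0.41 over the members and -0.14 over all genes. The largest were Nfatc2, from 49.8 CPM in BL/6 to 22.5 in SM/J (-1.11, -1.60 to -0.64), and Sh2d2a, from 82.9 to 41.1 (-0.99, -1.36 to -0.64). Both were also higher in Ccl5-high non-CD8 T cells, and Ccl5-high cells were 59.7% of BL/6 and 13.9% of SM/J T cells at this age. With the 4 gates weighted equally in both libraries, Nfatc2 was at -0.60 and Sh2d2a at -0.33, and the members' median was -0.18. Of the 9 members, Nfatc2, Zap70 (-0.61) and Ubash3a (-0.82) then stayed past the fold, joined by Cd4 (-0.73), Cd247 (-0.71) and Icos (-0.62), beside 656 of 5437 genes lower and 297 higher.

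By gate the members' median was 0.01 in Ccl5-high CD8 cells, 0.22 in Ccl5-low CD8 cells, -0.19 in Ccl5-high non-CD8 and -0.25 in Ccl5-low non-CD8 cells. Of 20 members tested in the first, 1 was higher and 2 lower past the fold, beside 6.49% and 18.4% of genes. In Ccl5-low CD8 cells 3 of 11 were higher and 1 lower, beside 18.7% and 12.8%. In the non-CD8 gates 0 of 11 were higher and 2 lower (10.8% and 16.7% of genes) among Ccl5-high cells, and 1 of 21 higher and 4 lower (5.83% and 11.5%) among Ccl5-low cells. Without mixed, macrophage and red-cell droplets, 1 of 20 was higher and 0 lower in the Ccl5-low non-CD8 gate (4.95% and 9.84% of genes), and the 4 medians were 0.08, 0.33, -0.02 and -0.15.

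The next were Lcp2 (-0.87, from 135 to 73.1 CPM), Zap70 (-0.84, from 75.1 to 41.6), Ubash3a (-0.81, from 62.1 to 34.9), Cd6 (-0.79, from 147 to 84.6), Tespa1 (-0.68, from 102 to 63.1), Plcg1 (-0.67, from 44.6 to 27.7) and Fyn (-0.60, from 459 to 303). With the gates weighted equally, 5 of these came inside the fold: Lcp2 was at -0.43, Cd6 at -0.35, Plcg1 at -0.30, Tespa1 at -0.16 and Fyn at -0.10. Lat (151 against 153 CPM), Themis (593 against 567) and Prkcq (431 against 395) were close between the strains. Over aliquots 16 of 27 members did not overlap, 15 of them lower in SM/J and Txk higher, beside 38.0% of all genes and 26.7% lower. Without mixed, macrophage and red-cell droplets, 7 of 26 members were lower past the fold (14.2% of genes), led by Plcg1 (-0.87), Sh2d2a (-0.83) and Ubash3a (-0.80), and Trat1 was higher (0.84; 4.02% of genes). Fyn (-0.34) and Cd6 (-0.47) were then inside it.

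At 20 months 5 members were lower in SM/J and 2 were higher. Of 5068 genes 17.4% were past the fold (9.91% higher and 7.52% lower in SM/J), and 7 of 27 members, with a median of -0.17 against 0.04 over all genes. By gate, with all droplets kept, 0 of 18 were higher and 4 lower in Ccl5-high CD8 cells (9.95% and 13.2% of genes). In Ccl5-low CD8 cells 1 of 6 was higher and 0 lower (22.1% and 11.9%). In Ccl5-high non-CD8 cells 0 of 10 were past the fold (12.6% and 16.4%). In Ccl5-low non-CD8 cells 1 of 23 was higher and 2 lower (10.9% and 9.09%). In T cells gated by at least 1 CD3 UMI, 21 of 27 were lower and 2 higher (14.7% and 17.4% of genes), with a median of -0.94. Ubash3a was at 64.2 CPM in BL/6 and 27.9 in SM/J (-1.17, -1.71 to -0.66), Sh2d2a at 67.4 and 35.1 (-0.92, -1.41 to -0.46), and Rasgrp1 at 153 and 91.8 (-0.73, -1.03 to -0.43). Nfatc2 was at 45.7 and 27.1 CPM (-0.73, -1.29 to -0.20). With the gates weighted equally Ubash3a was at -1.12, Sh2d2a at -0.86, Cd247 at -0.82, Rasgrp1 at -0.70 and Nfatc2 at -0.64. Trat1 was then at 0.58, just inside the fold. Ubash3a and Rasgrp1 stayed past the fold without mixed, macrophage and red-cell droplets (-1.05 and -0.86), and Sh2d2a (-0.56) and Nfatc2 (-0.47) did not, so that 2 of 26 members were lower (9.10% of genes) and Trat1 alone higher (5.81%).

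Cd247, the zeta chain that carries most of the receptor's signalling motifs, was at 374 CPM in BL/6 and 215.5 in SM/J (-0.79, -0.99 to -0.60), with 345.5 to 393 over the BL/6 aliquots and 202 to 240 over those of SM/J. At 12 months it was at 319 and 220 CPM (-0.53, -0.70 to -0.37). In both pairs the aliquots of the strains did not overlap. It was lower by -0.93 (-1.40 to -0.48) in Ccl5-high CD8 cells and by -0.86 (-1.11 to -0.62) in Ccl5-low non-CD8 cells at 20 months. Over all T cells without mixed, macrophage and red-cell droplets the ratios were -0.39 at 12 and -0.52 at 20 months, inside the fold.

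Trat1 was higher in SM/J at both ages, though the aliquots overlapped at 12 months. It was at 94.2 CPM against 59.0 at 20 months (0.67, 0.32 to 1.00) and at 61.7 against 41.6 at 12 months (0.56), with aliquots at 57.2 to 66.6 and 28.8 to 62.8 CPM. The 20-month ratio was -0.19 in T cells gated by at least 1 CD3 UMI, while without mixed, macrophage and red-cell droplets the ratios were 1.01 and 0.84. In Ccl5-low non-CD8 cells the same ratios, with all droplets, were 0.70 (0.35 to 1.05) and 1.25 (0.75 to 1.78). Over aliquots 10 of 27 members did not overlap at 20 months, 9 lower in SM/J and Trat1 higher, beside 32.9% of all genes and 14.3% lower. Reads of SM/J mice were set against the mm10 reference, which is of the C57BL/6 strain; its part in the strain differences was not tested.

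**Figure D5:**
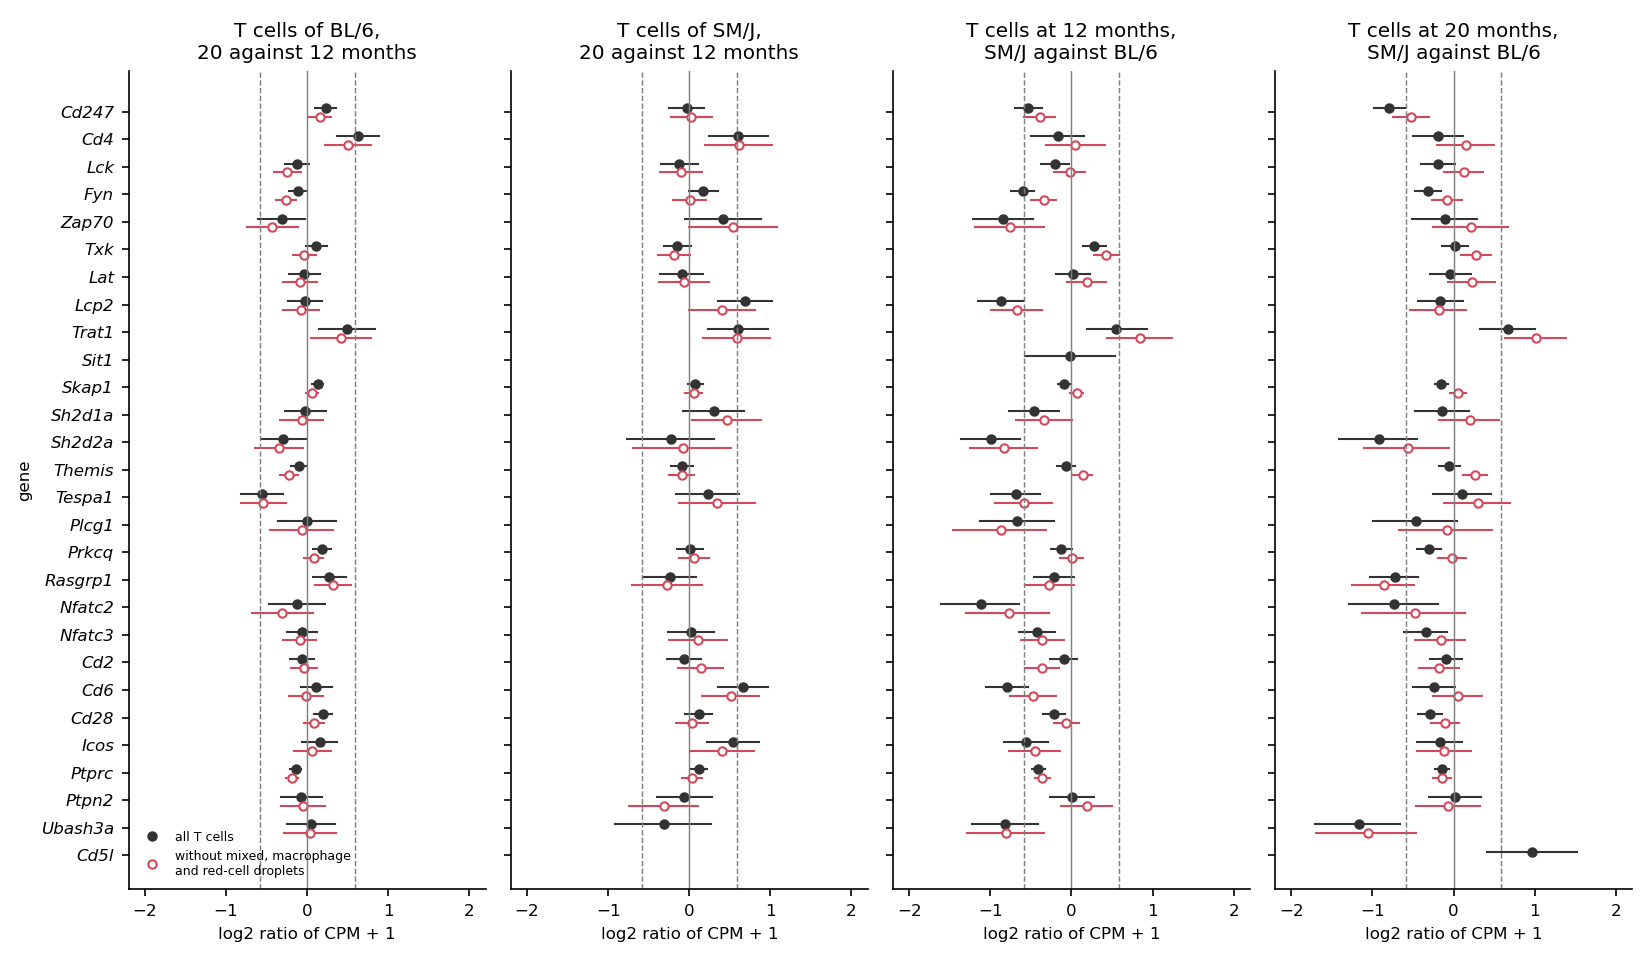
Log2 ratio of CPM + 1 in T cells for each member with at least 100 UMIs, by age in each strain (the left pair of panels) and by strain at each age (the right pair). Filled dots are all T cells and open dots those without mixed, macrophage and red-cell droplets, lines are 95% counting intervals and dashed lines mark 1.5-fold; most dots at 12 months between the strains lie left of 0, down to -1.11 for Nfatc2, while Trat1 lies to the right in all 4.

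Cd5l, the second member past the fold upward at 20 months (0.97, 0.41 to 1.52), is a macrophage-secreted protein of the same receptor family as Cd5. It had 806, 558, 336 and 604 CPM in the macrophage gate. In T gates it had 3, 59, 28 and 48 UMIs, in 3 to 5 cells of each library, and 1 cell alone held 55 of the 59 in BL/6 at 20 months. Cells with at least 2 macrophage-marker UMIs carried 0%, 93.2%, 85.7% and 100% of them. It was kept out of the module.

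Other genes of the pathway, from 5 lists of 60 symbols of which 58 are in the files, moved in the same contrasts. No listed gene was called between Ccl5-high and Ccl5-low CD8 cells. In NK cells, where 9.33% of all genes rose and 11.4% fell, 1 of 7 tested receptor chains and docking sites rose (Itgal, the LFA-1 integrin, 0.95) and 4 fell, led by Cd5 (-5.32), Trac (-5.01) and Trbc2 (-2.69), whose reads can be split with the near-identical Trbc1. Among 14 proximal kinases and adaptors, Tec rose (1.11) and 3 fell, including the adaptor Grap2 (-1.91). In the calcium, diacylglycerol and NF-kB list 3 of 15 rose, led by Pik3r1 (1.05), and 4 fell, led by Dgka (-2.25). Of 9 negative regulators 3 rose and 2 fell, the latter being Ctla4 (-3.08) and Cblb (-0.99). Of 7 activation-response genes Nr4a1 rose (1.70) and Cd69 (-2.26), Myc (-1.30) and Fos (-0.91) fell.

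In Ccl5-high against Ccl5-low non-CD8 cells the negative regulators moved both ways, beside 5.04% of all genes that rose and 5.69% that fell. Of 10 tested, 4 rose, led by the phosphatases Dusp2 (2.32) and Ptpn7 (1.05) and by Rgs1 (1.22), and 3 fell, including Btla (-1.21) and Ctla4 (-1.15). The receptors Cd226 (1.89) and Itgal (1.32) rose, of 8 tested, as did the adaptors Nck2 (0.96) and Wipf1 (0.72), of 13. Pik3r1 rose (0.73) and Dgka fell (-0.98), of 15, and Junb fell (-0.67), of 8. Among Ccl5-low cells, where 1.39% of genes rose and 2.17% fell, those of the CD8 gate had more Cd69 (1.20) and Dusp2 (1.18) and less Ubash3b (-1.11) and Cd5 (-0.99).

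With age in BL/6, 3 of 8 tested activation-response genes were higher past 1.5-fold at 20 months, Nfkbia (0.70), Myc (0.69) and Cd69 (0.60), beside 2.58% of all genes. In the other lists Cblb (0.71) and Nck2 (0.64) were higher, and Cd226 (-0.99), Sla2 (-0.81) and Nfatc1 (-0.59) lower, beside 6.54%. In SM/J at 12 months 2 of 8 activation-response genes were higher than in BL/6, Myc (0.92) and Egr1 (0.61), beside 5.41%. Lower there were 2 of 7 receptor chains, Cd226 (-1.32) and Itgal (-1.24), 2 of 14 proximal and 2 of 15 calcium, diacylglycerol and NF-kB genes, and 4 of 10 negative regulators, led by Ptpn7 (-0.80), beside 14.0%. At 20 months 3 of 10 negative regulators were lower, led by Dusp2 (-0.79), beside 7.52%, and Ptpn6, which encodes SHP-1 (0.64), and Tec (0.67) were higher, beside 9.91%. In SM/J between the ages the immediate-early gene Fos (1.01) was past the fold, alone among the listed genes with at least 100 UMIs; below that limit the receptor chain Trdc had 8 and 34 UMIs (2.54, 1.56 to 3.54). These listed genes are given with all droplets kept.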

How the data were processed

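Mononuclear cells from blood of BL/6 and SM/J mice were obtained through cardiac puncture and a density gradient with red-cell lysis, per the labels' protocols. The deposited values are raw UMI counts for each gene in each cell, and per the file headers they come from Cell Ranger 7.0.1; the submitters' processing notes name mm10 and Seurat 4.3.0. How cells were called and which annotation release was used are not stated there. The members and all gene lists were chosen with earlier results of these data known.

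Cells with at least 500 UMIs, 200 genes and at most 10% mitochondrial UMIs were kept, and 130 of 11721 (1.11%) were dropped as doublets (Scrublet in scanpy 1.11.5, expected rate 0.06). Of the cells, 48 carried their highest tag count outside their own library's tags and entered no aliquot. Median UMIs per kept cell were 4062, 4917, 4731 and 8837. Counts were summed per library and gate. Gate contrasts, replicated over 4 libraries, used edgeR 4.0.16 (quasi-likelihood, library block, TMM, at least 100 UMIs, Benjamini-Hochberg adjusted p under 0.05; DESeq2 1.42.0 as an alternative); the block is a shared library, stated by the labels. Age and strain values are log2 ratios of CPM + 1 with exact 95% binomial intervals, described by a 1.5-fold limit. Macrophages had at least 3 UMIs of C1qa, Alox15 and Prg4, B cells at least 3 of a B cell marker set that includes Cd79a and Ms4a1. Cells in the T or NK gates entered neither. Some items are not reported here. Named genes are the members called or past the fold, and at most 3 genes per pathway list. The fit was checked on simulated counts, where it found 33% to 40% of 2-fold and 81% to 100% of 4-fold changes. It made 5 or 6 false calls in each contrast. Promoters come from RefSeq's GRCm38.p6 table.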

Additional observations from a re-analysis of the deposited data

Results flagged for a closer look

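In 5 of 23 groups of 4 libraries, 1 library's log2 ratio lay far from the other 3 by Dixon's criterion, which chance meets in about 1 in 20 groups. In Ccl5-high against Ccl5-low non-CD8 T cells, Sh2d2a was at 1.06 in SM/J at 12 months and at 1.62 to 1.73 in the others. In NK cells against Ccl5-high CD8 T cells, Lat was at -2.85 in BL/6 at 12 months (others -1.29 to -1.19), and Themis, with 2 NK UMIs there and 0 in the others, at -7.28; the other 3 values are set by the added 1 CPM, so this flag shows 2 UMIs against 0. Cd28 was at -4.12 in SM/J at 20 months (others -2.68 to -2.57), and Skap1 at -1.02 in SM/J at 12 months (others -0.76 to -0.71). The share of Ccl5-high T cells was lower at 20 than at 12 months for BL/6 (33.3% against 59.7%) but higher for SM/J (28.2% against 13.9%), and the separate aliquots of the ages did not overlap in either strain. With cells thinned to 1000 UMIs it was 25.2% against 59.5% for BL/6. For SM/J it was then 17.9% against 15.7%, with overlapping intervals. This difference between the strains was not tested.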

How the results depend on the processing

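Over all settings, 166 counts and shares stayed within 1.5 times, or the counting interval, of the reported ones, 53 did not and 5 turned direction; of the values of named members 639 stayed, 43 lost their call, 21 moved and 7 turned. Thinning each cell to 1000 UMIs left few members testable and gave 0 (non-CD8, Ccl5-high against low), 0 (Ccl5-low, CD8 against non-CD8), 3 (NK), 0 (SM/J age), 0 (strain, 12 months) and 2 (strain, 20 months); in BL/6 with age it gave 1, now lower. A T cell gate of CD3 of at least 1 UMI gave 11 (non-CD8), 10 (Ccl5-low), 10 (SM/J age, 9 of them lower) and 23 (strain, 20 months). No low-count filter gave 2 members within the CD8 gate, sums per 10x run 9 in the non-CD8 contrast, and no replicate block 0 among Ccl5-low cells. Over all genes, DESeq2, no filter and no block gave 408, 962 and 277 against 628 (non-CD8), and 83, 438 and 21 against 202 (Ccl5-low), where removing mixed droplets gave 71. For BL/6 age (1 member), TMM gave 2, a minimum of 30 UMIs 3, CD3 of at least 3 UMIs 2, the receptor's constant genes as gate 1 and a mitochondrial limit of 5% 1 (both lower), and no mixed droplets, no mixed, macrophage and red-cell droplets, and equal gate weights 0 each. For SM/J age (4 members), TMM gave 0, a pseudocount of 5, a minimum of 300 UMIs, CD3 of at least 3, kept doublets, no mixed, macrophage and red-cell droplets, and equal weights 2 each, no mixed droplets and the 5% limit 1 each, and the constant genes 1, lower. A minimum of 300 UMIs gave 5 and 3 for the strains at 12 and 20 months, where removing mixed droplets gave 4, and also macrophage and red-cell droplets 3, at 20 months. Leaving out a library gave 0 in the CD8 contrast (7 to 21 genes in all), 4 to 8 in the non-CD8 one (8 without BL/6 20; 279 genes without BL/6 12), 1 to 5 in the Ccl5-low one (56 genes without SM/J 12, 70 without SM/J 20, 127 without BL/6 12) and 8 to 13 for NK cells (583 genes without BL/6 20). Leaving out an aliquot gave 0 to 2 (BL/6 age; 0 without aliquot 3 at 20 months), 1 to 4 (SM/J age; 1 without aliquot 1 at 12 months), 6 to 10 and 4 to 8 (4 without BL/6 20 aliquot 2). CD8 shares were 41.8%, 25.7% and 18.8% with CD3 of at least 1 (BL/6 12, SM/J 12 and 20), 36.5%, 9.22%, 14.6% and 12.6% thinned, and 24.0% at the 5% limit (SM/J 12). Ccl5-high shares were 51.9% (BL/6 12) and 21.0% (SM/J 20) with CD3 of at least 1, and 25.2% and 17.9% thinned (20 months). Without an aliquot, CD8 shares lay at 45.1% to 50%, 26.2% to 28.6%, 28.6% to 32.0% and 23.5% to 27.8%, and Ccl5-high shares at 56.7% to 61.8%, 30.1% to 35.8%, 13.9% to 14.2% and 26.6% to 31.3%. Direction reversed for Lck (-0.26, non-CD8) and Themis (-0.22, Ccl5-low) when thinned, and with CD3 of at least 1 for Cd4 (-0.044), Cd6 (-0.0095), Lcp2 (-0.072) and Trat1 (-0.12) with age in SM/J and for Trat1 (-0.19) between strains at 20 months; the cause was not tested. No paired analysis was possible between ages or strains because the labels give no replicate numbers.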
